A study of Arabidopsis thaliana with 6 samples.

Results

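The DREB2 group comprises 8 Arabidopsis thaliana genes, DREB2A to DREB2H, which encode transcription factors with 1 AP2/ERF domain each. Members were found by joining the platform's probe table to RefSeq by gene ID and keeping probe sets paired with exactly 1 listed locus. Of the 8 loci, 5 had such a probe set and are described here. They are DREB2C (AT2G40340, probe set 13419379), DREB2D (AT1G75490, probe set 13359461), DREB2F (AT3G57600, probe set 13440616), DREB2G (AT5G18450, probe set 13527892) and DREB2H (AT2G40350, probe set 13419383). The probe table gives DREB2C by its symbol and the other 4 by locus code. DREB2A (AT5G05410), DREB2B (AT3G11020) and DREB2E (AT2G38340) were not analysed here. These 5 probe sets stand among 17504 with a gene and 38408 in all.

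Whole seedlings carrying 35S::PLT2-GR made up both groups. Here the broadly active 35S promoter drives PLT2, an AP2-domain factor of the PLETHORA family, joined to the hormone-binding part of the glucocorticoid receptor, which moves into the nucleus once dexamethasone binds it. Seedlings aged 4 days were placed in liquid medium overnight. The dexamethasone group then received 10 µM of the compound and the mock group received DMSO, and both were harvested 6 h later. Each group had 3 flasks, labelled as biological replicates, with about 50 seedlings per flask and 1 array per flask. The design has no dexamethasone-treated seedlings without the fusion, so dexamethasone itself and the fusion cannot be told apart as sources of any difference. PLT2 itself was not analysed here.

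DREB2 proteins bind the dehydration-responsive element in promoters and activate genes for tolerance of drought, salt and heat. DREB2A, the best known member, is induced by drought and heat, and its protein is kept low in unstressed plants by ubiquitin-dependent degradation. DREB2C is known as a heat-induced member that activates the heat shock factor gene HSFA3. The roles of DREB2D, DREB2F, DREB2G and DREB2H are less well described. PLETHORA proteins belong to another branch of the AP2/ERF superfamily, with a pair of AP2 domains, and promote root meristem growth.

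Each probe set has a deposited log2 value per array, already scaled between arrays, with array medians of 5.43 to 5.48. The low end was not level between the groups. First quartiles were 3.054 to 3.077 in mock arrays and 3.101 to 3.238 in dexamethasone arrays. The part of this offset in the differences of low-signal genes was not tested gene by gene. Across probe sets with a gene, Pearson correlations were 0.990 to 0.994 for arrays of the same group and 0.976 to 0.981 for arrays of different groups. Genes were compared as dexamethasone minus mock with limma on all 17504 probe sets, and a probe set passed at a Benjamini-Hochberg adjusted p under 0.05. By this rule 18.6% of probe sets passed, 9.04% higher and 9.54% lower with dexamethasone. The loci come from the family list, but the group was selected on the dexamethasone minus mock values of this same contrast, which were known when it was proposed. Their differences are therefore given as a description with standard errors, without p-values, and folds are 2 to the power of those differences.

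Among the 5 measured genes, DREB2H, DREB2C and DREB2D had higher values in dexamethasone-treated than in mock seedlings, with differences of 2.76, 1.44 and 0.86 on the log2 scale. DREB2F and DREB2G differed by -0.08 and 0.22. In the limma fit 3 of the 5 passed, all higher, where 9.04% of all probe sets passed as higher. Dexamethasone and mock arrays did not overlap for the same 3 genes, against 38.1% of all probe sets without overlap in either direction and 19.3% with dexamethasone higher. The median difference of the 5 was 0.86 and that of all tested probe sets was 0.02. Since the members were chosen with these values known, nothing is read from those counts.

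**Figure D1:**
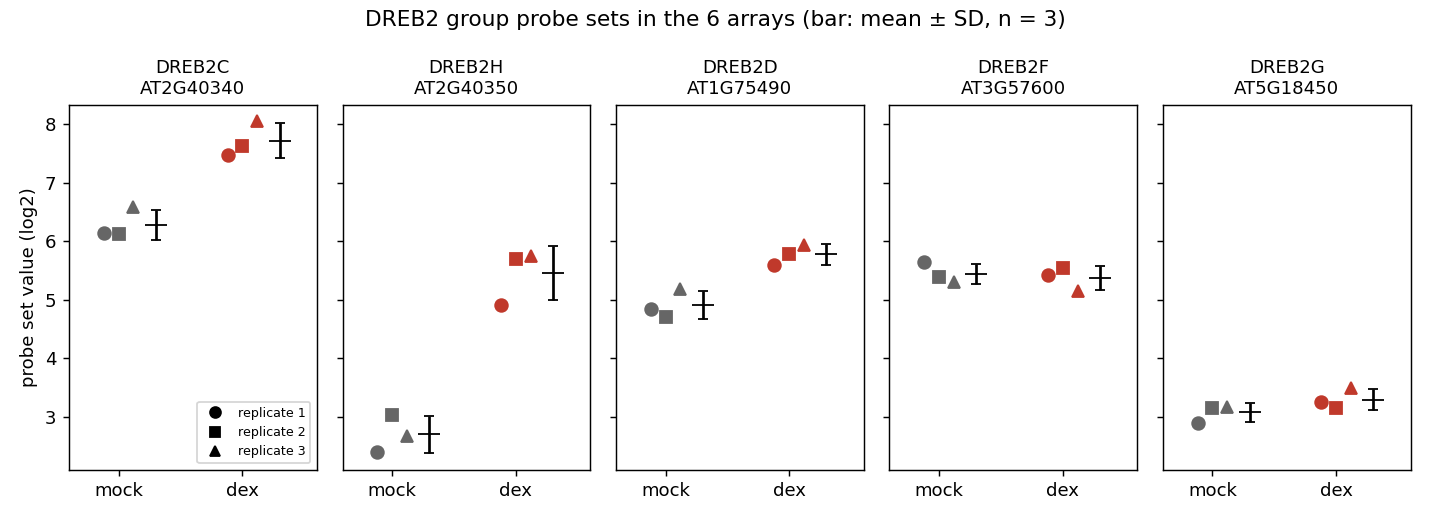
Probe set values (log2, y axis) of the 5 measured DREB2 genes in mock (grey) and dexamethasone (dex, red) arrays, with 1 symbol shape per replicate number and the mean ± SD of 3 arrays beside them. DREB2C, DREB2H and DREB2D are higher in all 3 dexamethasone arrays than in any mock array, while the groups of DREB2F and DREB2G overlap.

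DREB2H showed the widest separation. Its values were 2.40, 3.03 and 2.66 in mock replicates 1, 2 and 3, and 4.92, 5.69 and 5.76 in dexamethasone replicates 1, 2 and 3. The lowest dexamethasone array thus stood 1.88 above the highest mock array. The means were 2.70 ± 0.32 (SD, n = 3) in mock and 5.46 ± 0.47 (SD, n = 3) in dexamethasone, a 6.76-fold difference (log2 difference 2.76, SE 0.26). All 3 mock values lay under the first quartile of their array, which was 3.05 to 3.08 in mock. The fold of DREB2H is therefore approximate, as signal over background could not be read from these files. With dexamethasone its values were near the array medians, at the 44.1 to 53.6 percentile of all probe sets against the 14.4 to 24.6 percentile in mock.

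DREB2C, the heat-linked member, lay well inside the signal range in both groups. The mock arrays gave 6.15, 6.12 and 6.58 for replicates 1 to 3, and the dexamethasone arrays gave 7.48, 7.64 and 8.05. All dexamethasone values were above all mock values, by at least 0.90. Means were 6.28 ± 0.26 (SD, n = 3) and 7.72 ± 0.30 (SD, n = 3), which is a 2.71-fold difference (log2 difference 1.44, SE 0.19).

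DREB2D had the smallest of the 3 differences. It read 4.85, 4.71 and 5.18 in mock replicates 1 to 3 and 5.59, 5.79 and 5.94 in dexamethasone replicates 1 to 3. The groups were 0.41 apart at their nearest arrays. Mean values were 4.91 ± 0.24 (SD, n = 3) in mock and 5.77 ± 0.18 (SD, n = 3) in dexamethasone, a 1.82-fold difference (log2 difference 0.86, SE 0.15).

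DREB2F did not separate the groups. It had 5.64, 5.39 and 5.31 in mock and 5.42, 5.54 and 5.15 in dexamethasone replicates 1 to 3. The highest value came from a mock array and the lowest from a dexamethasone array, with the others interleaved. Its difference was -0.08 (SE 0.14), and its sign turned when either of 2 arrays was left out, to 0.03 without dexamethasone replicate 3 and 0.02 without mock replicate 1. Its signal was mid-range, at the 46.6 to 51.9 percentile of all probe sets in every array.

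DREB2G had the lowest signal of the members in dexamethasone arrays relative to all probe sets, at the 25.5 to 28.5 percentile. In mock arrays it was at the 22.9 to 26.1 percentile. Its mock values were 2.89, 3.15 and 3.17 and its dexamethasone values 3.25, 3.14 and 3.48 for replicates 1 to 3. Only dexamethasone replicate 2 fell within the range of the mock arrays. The difference was 0.22 (SE 0.13), or 0.13 without dexamethasone replicate 3 and 0.30 without dexamethasone replicate 2. Its values lay near the array first quartiles, which were higher with dexamethasone, and with quantile normalization the difference was 0.14.

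The 3 genes with separated groups also shared an order among the dexamethasone arrays. DREB2C, DREB2D and DREB2H were each lowest in dexamethasone replicate 1, with deviations of -0.245, -0.183 and -0.537 from their group means in that order, and highest in dexamethasone replicate 3. DREB2G, whose groups overlap, was also highest in dexamethasone replicate 3. How many of all probe sets rank the arrays this way was not counted, so the shared order is only a description. In mock, DREB2C and DREB2D were both highest in replicate 3 and lowest in replicate 2, whereas DREB2H was highest in replicate 2. These spreads were smaller than the differences between groups for all 3 genes. Leaving out 1 array at a time gave differences of 2.61 to 3.03 for DREB2H, 1.27 to 1.59 for DREB2C and 0.76 to 1.00 for DREB2D.

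DREB2C and DREB2H are adjacent genes on chromosome 2 in the RefSeq annotation of TAIR10.1. Dexamethasone arrays were higher for both, with a larger log2 difference for DREB2H (2.76) than for DREB2C (1.44). The DREB2C value exceeded that of DREB2H by 3.75, 3.09 and 3.91 in mock replicates 1 to 3 and by 2.56, 1.94 and 2.30 in dexamethasone replicates 1 to 3. The gap was thus narrower in every dexamethasone array than in any mock array. Only its change can be read, since 2 probe sets differ in affinity. That change is approximate too, because all 3 mock values of DREB2H lay under the first quartile of their array. Whether either probe set also hybridises with the transcript of the other gene was not tested.

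Of the 10 protein-coding genes nearest to the pair, 5 on either side, 6 had a probe set. The gene directly after DREB2H, AT2G40360, rose from a mean of 9.60 to 10.17, a 1.48-fold change (log2 change 0.57, SE 0.10, limma adjusted p 0.0117). Its mock arrays read 9.71, 9.65 and 9.45 and its dexamethasone arrays 10.11, 10.25 and 10.14, without overlap. On the other side TBL33 (AT2G40320), whose family adds acetyl groups to wall polysaccharides, fell by 1.00 on the log2 scale (SE 0.11, limma adjusted p 0.00209), and PYL6 lies between it and DREB2C and was not analysed here. AT2G40310, AT2G40316, PRA1.B2 and AT2G40390 had differences of 0.19, -0.04, 0.03 and -0.07 and did not pass. The nearest measured gene thus rose on one side of the pair and fell on the other, both with smaller differences in size than DREB2C.

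**Figure D2:**
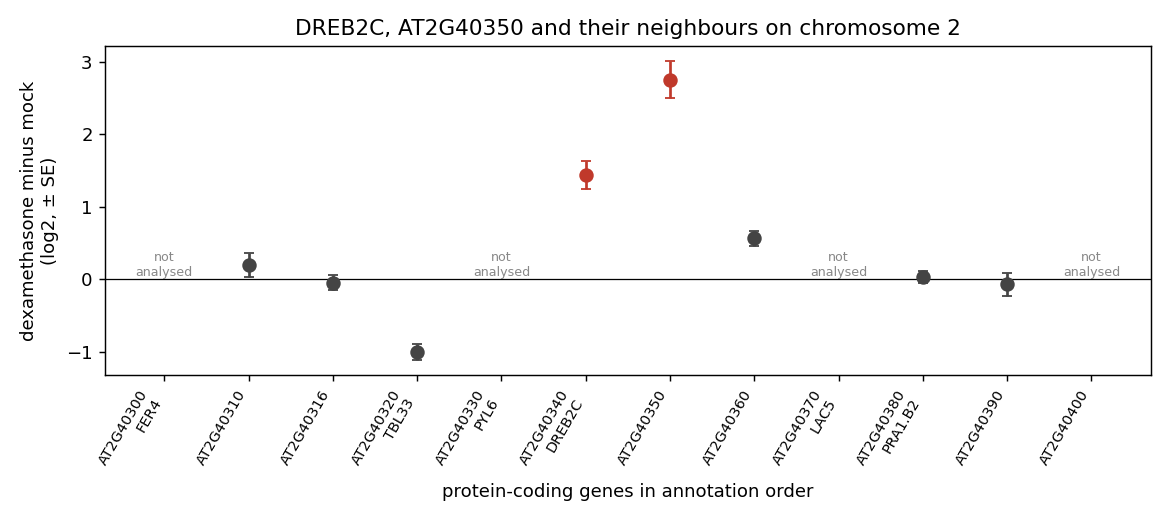
Dexamethasone minus mock difference (log2, ± SE, y axis) of DREB2C and AT2G40350 (DREB2H), in red, and of the 5 protein-coding genes on either side in annotation order (x axis, not to genomic scale). The pair stands at 1.44 and 2.76, AT2G40360 at 0.57 and TBL33 well below 0, with the other 4 measured neighbours between -0.07 and 0.19.

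The DREB subfamily holds further groups, A-1 and A-3 to A-6, with DREB2 as group A-2. Of 47 listed loci in those groups 26 were measured, of which 1 rose, 7 fell and 18 did not pass. Over all probe sets 9.04% rose and 9.54% fell. Their median difference was -0.11. Leaving out 1 array at a time gave 1 to 3 that rose and 5 to 7 that fell. The number that rose was 2 without mock replicate 2, dexamethasone replicate 1 or dexamethasone replicate 3, and 3 without mock replicate 3. A difference between DREB2 and the other groups was not tested. None of the 6 DREB1/CBF loci of group A-1, which act in cold acclimation, was analysed here, nor ABI4 of group A-3.

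In group A-4, 3 of 13 measured genes fell and none rose with limma, where 9.54% of all probe sets fell and 9.04% rose. Of the 13, 6 had an unadjusted p under 0.05. The share of all probe sets with an unadjusted p under 0.05 was not counted, so nothing is read from such counts here or below. TINY, which restrains growth when overexpressed, read 7.27, 7.12 and 7.12 in mock and 6.26, 6.51 and 5.84 in dexamethasone arrays. It fell 1.95-fold (log2 change -0.96, limma adjusted p 0.0106). AT2G44940 fell by 0.76 on the log2 scale, with a limma adjusted p of 0.0133 that was 0.0507 without mock replicate 1, and AT1G77200 fell by 0.67 with an adjusted p of 0.00621. The other 10 differed by -0.22 to 0.62 and did not pass. Among these, named after their values were seen, AT4G16750 passed as higher without mock replicate 3 (adjusted p 0.036) or dexamethasone replicate 3 (0.0462), AT1G44830 without mock replicate 3 (0.00933) and AT4G32800 without dexamethasone replicate 1 (0.0467), with limma adjusted p of 0.0631, 0.142 and 0.0532 over all 6 arrays.

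Group A-6 had calls in both directions, with 4 of 7 measured genes lower, 1 higher and 2 not past the threshold. Over all probe sets 9.54% passed as lower and 9.04% as higher, and a difference from these shares was not tested. AT1G36060 was the 1 that rose, and it was the only gene of the 26 with a rise as large as that of DREB2C. Its values were 7.35, 7.37 and 7.56 in mock and 9.06, 8.98 and 9.11 in dexamethasone arrays, a log2 change of 1.62 with a limma adjusted p of 2.27e-04. AT4G13620 fell 2.43-fold and AT1G64380 fell 2.07-fold, with limma adjusted p of 0.00246 and 7.96e-04. The other 2 that fell, named after their values were seen, were AT4G39780 (log2 change -0.95) and AT2G22200 (log2 change -0.73). AT2G22200 had a limma adjusted p of 0.0185, and this rose to 0.0685 when mock replicate 1 was left out, to 0.058 for mock replicate 3 and to 0.0576 for dexamethasone replicate 1.

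Among the 6 measured genes of group A-5 none passed with limma, and 1 had an unadjusted p under 0.05. That gene, AT1G22810, had a difference of 0.86 with a limma adjusted p of 0.0543, and of 0.0334 without mock replicate 2. ORA47, a wound- and jasmonate-responsive member, differed by -0.18, and its mock arrays spread from 2.72 to 3.99. Signals in group A-5 were low, and only 1 of the 6 genes remained when the dimmest 30% of probe sets were left out. The lack of calls is therefore not read as a lack of change.

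**Figure D3:**
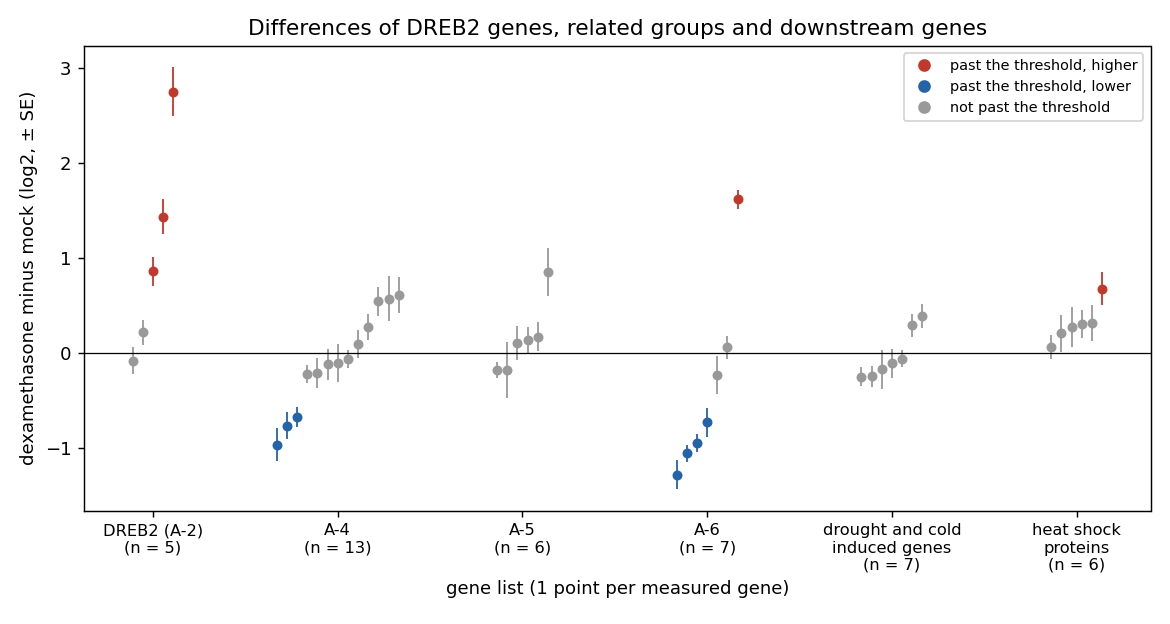
Dexamethasone minus mock difference (log2, ± SE, y axis) of each measured gene of DREB2, of DREB groups A-4, A-5 and A-6, and of 2 downstream lists (x axis), coloured by whether the gene passed an adjusted p of 0.05 in the limma fit. DREB2H and DREB2C stand at 2.76 and 1.44, AT1G36060 of group A-6 at 1.62, and the drought and cold induced genes between -0.24 and 0.39.

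Genes reported to act downstream of DREB factors were also compared. Of 20 listed drought and cold induced genes whose promoters are known for such elements or for abscisic acid response, 7 were measured. None of the 7 passed with limma, and 3 had an unadjusted p under 0.05, with no list-wide direction (2 differences above 0 and 5 below, median -0.11). KIN1, a cold-induced gene, had 3.46, 3.33 and 3.39 in mock and 3.66, 4.02 and 3.67 in dexamethasone arrays. Its difference of 0.39 had a limma adjusted p of 0.0703. COR47, a dehydrin gene, differed by -0.24 and COR15A, for a chloroplast-protecting protein, by 0.29. With an intensity trend in eBayes COR47 and AT2G23120 passed as lower (adjusted p 0.027 and 0.0373). Without the dimmest 30% of probe sets 5 of the 7 were tested, and KIN1 passed as higher (limma adjusted p 0.0396). Part of the list had low signal, with COR15A at 2.62 to 3.03 in mock, under the first quartile of each mock array. The lack of calls is therefore not read as a lack of change.

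Of 22 listed heat shock factors and heat shock proteins 6 were measured, all on the heat shock protein side of the list, and HSFA3 was not analysed here. AT5G51440 was the 1 that passed, with 7.22, 7.06 and 7.18 in mock and 7.57, 8.23 and 7.69 in dexamethasone arrays. Its log2 change was 0.68 with a limma adjusted p of 0.0376. That call was lost without mock replicate 1 (0.0886), mock replicate 2 (0.109), mock replicate 3 (0.0908) or dexamethasone replicate 3 (0.0589). The other 5 differed by 0.07 to 0.32 and did not pass, so all 6 differences were above 0, with a median of 0.29. Over all probe sets 9.04% rose. The share of all probe sets with a difference above 0 was not counted, so nothing is read from the shared sign.

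Of 18 listed regulators and partners of DREB2A, only BPM3 was measured. It encodes an adaptor of ubiquitin ligases that is reported to target DREB2A, and it differed by 0.12 with a limma adjusted p of 0.572.

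Tissue markers were read beside these results. The leaf markers RCA and LHCB4.1, the 2 measured of 12, were at 9.89 or above in every array and averaged 10.65 to 10.67 in mock and 10.34 to 10.47 in dexamethasone arrays. RCA fell by 0.32 with a limma adjusted p of 0.0475, which was 0.0701 to 0.139 with any 1 array left out. Of 12 root and root hair markers 4 were measured and 3 fell, namely PRX44 (AT4G26010, log2 change -1.58) and the root hair expansin genes EXPA18 (-1.35) and EXPA7 (-1.23). Over all probe sets 9.54% fell. The markers were listed with earlier results of these data known, so no change of the root as a whole is read from that count. AGL42, the other one, had 3.21, 3.56 and 2.34 in mock and 3.85, 3.58 and 3.67 in dexamethasone arrays, a difference of 0.66 that did not pass (limma adjusted p 0.166). The mean of the 4 was 5.48 to 5.83 in mock and 4.68 to 5.07 in dexamethasone arrays. Their part in the DREB2 differences was not tested, and in whole seedlings fewer cells of a type and less RNA per cell cannot be told apart.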

How the data were processed

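The deposited table holds log2 values, 1 per probe set and array, for 6 arrays of biotin-labelled total RNA. Per the submitters' processing notes, RMA and limma 3.24.15 were used, with roles not stated there. Not given in the sources used here are the build and how probes were summarised. Arrays were grouped by the sample titles. Of 38408 probe sets, 17504 have a gene in the platform's probe table, 16746 of them exactly 1, and 16601 of these matched RefSeq (TAIR10.1) by gene ID. Coordinates and sequences are not printed, since the probes' build is unknown here and no sequence table was at hand.

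The comparison used lmFit and eBayes of limma 3.58.1 (R 4.3.3), two-sided and with no replicate block, over all 17504 probe sets, without a filter, with Benjamini-Hochberg adjustment. The code was tested on simulated data with known changes. SE is the moderated standard error, and the number of arrays limits the precision. Members and lists were chosen with earlier results of these data known. The rule for names was every measured DREB2 gene, up to 3 passing genes per list with the largest change or else the one with the smallest p, the 5 genes on either side of the adjacent pair, and the 3 probe sets most like DREB2H. COR47, COR15A, AT2G23120, ORA47, LHCB4.1 and AGL42 were named outside that rule, after their values were seen. Flasks are the replicates, from 1 line, so p-values measure the spread between flasks. Alternatives were a replicate block, quantile normalization, median centring, a filter on the dimmest 30% of probe sets, an intensity trend, array weights, all probe sets, and leaving out each array in turn.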

Additional observations from a re-analysis of the deposited data

How the results depend on the processing

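DREB2C, DREB2D and DREB2H passed the threshold as higher in the fit described above and in each alternative, and DREB2F and DREB2G in none. The members were chosen with this contrast known and the alternatives reuse its arrays, so these passes are only a description. Of 17504 probe sets, 1724 (without mock replicate 1) to 4348 (intensity trend) passed in the alternatives. The counts were 3996 of 12253 without the dimmest probe sets and 4870 of 38408 with all probe sets. DREB2G was left out with the 30% dimmest probe sets, so 4 members were tested there. Since the groups of DREB2C, DREB2D and DREB2H do not overlap, leaving out an array could not reverse them. DREB2F changed sign without dexamethasone replicate 3 (0.03) and without mock replicate 1 (0.02). Quantile normalization gave differences of 2.72, 1.42 and 0.84 for DREB2H, DREB2C and DREB2D, and 0.14 for DREB2G.

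Over all probe sets with a gene, 3252 passed. Leaving out 1 array gave 1724 to 2477, with the 3 lowest counts without mock replicates 1 (1724), 2 (2017) and 3 (2119), in fits with fewer arrays. The replicate block gave 2417 calls, 2273 of them shared, and kept 3 DREB2 calls. Under it AT5G51440 (adjusted p 0.073) and RCA (0.101) no longer passed. Deviations from the group means correlated between arrays of the same number at -0.00987, -0.0163 and 0.0305, so a pairing by number was not seen. RCA was also lost in each fit without 1 array (0.0701 to 0.139) and with all probe sets (0.0674), and AT5G51440 with all probe sets (0.0686). Of the other DREB genes, 3 rose in place of 1 without the dimmest probe sets (17 tested), with the trend and with array weights (26 tested in each). Over all probe sets the number that rose was 1907 of 12253, 2118 of 17504 and 1665 of 17504 in those fits. It was 1582 of 17504 in the main fit. The cause was not tested.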

Other observations

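The 3 single-gene probe sets whose values followed DREB2H most closely over the 6 arrays were AT5G49400, AT5G44980 and AT3G13150, with Pearson correlations of 0.9985, 0.9984 and 0.9979 among 16745 probe sets compared. AT5G49400 had a difference of 0.47, AT5G44980 of 0.69 and AT3G13150 of 0.97 on the log2 scale, all smaller than that of DREB2H. In all, 1362 probe sets had a correlation above 0.9. The arrays fall into 2 treatment groups. A probe set that separates them with dexamethasone higher therefore tends to correlate positively with DREB2H, and the likeness is a description.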
